A study of Mus musculus with 12 samples.

Results

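Imprinted genes were followed in embryonic mouse hearts that lacked the histone chaperone HIRA in the cardiogenic mesoderm. The genes were taken from a list of 35 symbols, and 33 of them had a row of their own among the 20368 genes of the deposited table. Commd1 was present only in a row counted jointly with its neighbour B3gnt2, and Copg2 was not analysed here. Whole hearts of CD1 embryos were sequenced at embryonic day 11.5 (E11.5) and E12.5 as bulk RNA, with 3 libraries in each of 4 groups. Controls were Mesp1Cre;Hira+/fl, with 1 intact Hira allele left after recombination, and mutants were Mesp1Cre;Hira-/fl, so that both genotypes carried the Cre driver and a floxed Hira allele. Mesp1Cre recombines in the early cardiac mesoderm, from which heart muscle, endocardium and epicardium descend. Cells that reach the heart by other routes, such as neural crest, keep the floxed allele, and the labels do not say whether a library came from 1 heart or from several.

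An imprinted gene is transcribed mainly from the copy inherited from 1 parent, because DNA methylation laid down in the egg or the sperm at a control region is kept on that copy after fertilisation. Imprinted genes lie in clusters that share a control region, and many of them regulate embryonic growth, with a trend for paternally expressed genes to promote it and for maternally expressed genes to restrain it. HIRA deposits the histone variant H3.3 outside of DNA replication. The read counts held both parental copies together, so a level here is total expression, and gain or loss of imprinting could not be seen. The expressed copy is given as textbook background, and for several genes of the list, such as Ascl2 and Slc22a3, it is established for the placenta rather than for the heart.

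The 4 promoter stretches below were chosen because Mest was the most abundant imprinted gene, Zim1 was a second carrier of the motif searched, and Asb4 and Dlk1 were 2 of the 3 genes with an unadjusted p under 0.05 for a difference of the mutant effect between the stages. Each is the 250 bases before a RefSeq transcription start on GRCm38.p6, written 5′ to 3′ on the strand of the gene. Capitals mark the hexamer TGCCGC or its reverse complement GCGGCA, the letters that the imprint-protecting zinc finger protein ZFP57 binds when their CpG is methylated. The Mest stretch is chr6:30737800-30738049 on the + strand and the Zim1 stretch is chr7:6696433-6696682 on the - strand. The Asb4 stretch, chr6:5383136-5383385 on the + strand, lies before the first of its 2 starts. The Dlk1 stretch is chr12:109452573-109452822 on the + strand.
Mest: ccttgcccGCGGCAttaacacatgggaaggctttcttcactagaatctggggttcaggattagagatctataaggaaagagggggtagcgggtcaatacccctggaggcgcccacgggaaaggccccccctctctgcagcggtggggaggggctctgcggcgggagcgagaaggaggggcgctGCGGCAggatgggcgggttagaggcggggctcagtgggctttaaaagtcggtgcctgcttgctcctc
Zim1: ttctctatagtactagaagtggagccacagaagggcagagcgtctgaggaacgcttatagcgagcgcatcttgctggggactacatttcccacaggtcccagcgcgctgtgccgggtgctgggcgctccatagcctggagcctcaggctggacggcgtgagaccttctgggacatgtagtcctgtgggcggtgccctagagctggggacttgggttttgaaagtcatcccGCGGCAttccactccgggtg
Asb4: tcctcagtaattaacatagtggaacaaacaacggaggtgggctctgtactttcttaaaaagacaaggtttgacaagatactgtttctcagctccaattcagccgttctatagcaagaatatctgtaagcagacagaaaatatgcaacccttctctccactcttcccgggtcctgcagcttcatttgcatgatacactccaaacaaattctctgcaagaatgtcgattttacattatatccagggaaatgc
Dlk1: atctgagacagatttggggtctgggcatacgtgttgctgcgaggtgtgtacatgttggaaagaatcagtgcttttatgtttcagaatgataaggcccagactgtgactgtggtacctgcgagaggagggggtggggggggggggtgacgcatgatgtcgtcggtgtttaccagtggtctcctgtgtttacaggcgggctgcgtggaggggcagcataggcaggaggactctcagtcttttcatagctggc

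The Mest stretch held the hexamer at 2 places and 14 CpG dinucleotides, and the Zim1 stretch held it at 1 place with 14 CpG. Mest has 3 starts, and the stretch before its first, chr6:30733256-30733505, held no match and 7 CpG. The Asb4 and Dlk1 stretches held no match, with 4 and 8 CpG. Nnat, the third gene with an unadjusted p under 0.05, held none in its 250 bases (12 CpG) but held a match in the longer window described next. Over windows of 300 bases, from 250 before to 50 after a start, RefSeq promoters were found for 29 of the 35 genes. The hexamer, searched on both strands, was in a window of 9 of these 29 genes (31.0%), namely Commd1, Copg2, Grb10, Mest, Nap1l5, Nnat, Plagl1, Snrpn and Zim1. It was in 13.1% of all 27025 genes with a promoter in the same table. The richest window of an imprinted gene held a median of 17 CpG (2 to 48), against a median of 8 over all genes. The hexamer itself contains a CpG, and up to 4 starts were searched for an imprinted gene. The part of CpG content or of the number of starts in the share with the hexamer was not tested. The octamers GAGAGAGA and AAGATGGC, the latter a YY1 motif, were in none of the 29 genes and in 4.55% and 3.19% of all genes. A match only says that these letters occur in the window.

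Several imprinted genes were among the most abundant transcripts of these hearts. On the RPKM scale, which divides reads by gene length and library size and so allows levels of different genes to be compared, 6 of the 33 genes had a mean over 12 libraries of at least 100 and 21 of at least 5. Mest, which encodes a protein of the alpha/beta hydrolase fold and is expressed from the paternal copy, stood first with a mean of 921 RPKM. Cdkn1c, the maternally expressed inhibitor of cyclin-dependent kinases p57, followed with 468 RPKM, so Mest was 1.97 times as high. Grb10, an adaptor that dampens signalling of the insulin and IGF receptors, stood at 367 RPKM, and the tetraspanin Cd81 at 354 RPKM. Gnas, the stimulatory G protein subunit, stood at 271 RPKM and Plagl1, a zinc finger transcription factor, at 139 RPKM. The amino acid transporter Slc38a4 (87.6 RPKM) and Ndn, necdin (58.8 RPKM), closed the list of the 8 highest.

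Together the 33 genes took between 0.914% and 1.09% of the counts of a library. Between libraries of 1 group the tested genes varied with a median coefficient of variation of 12.1%, from 6.01% for Zrsr1 to 35.4% for Zim1. The 6 genes Magel2, Rtl1, Slc22a3, Ascl2, Rasgrf1 and Dio3 had a mean under 0.5 RPKM and were not tested, which left 27. Magel2, the highest of them, had 14 to 50 reads per library, and Dio3, the lowest, had 0 to 4. The joint row of B3gnt2 and Commd1, which cannot be divided, ran from 67.9 to 124 CPM, which are read counts scaled to a common library total.

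**Figure D1:**
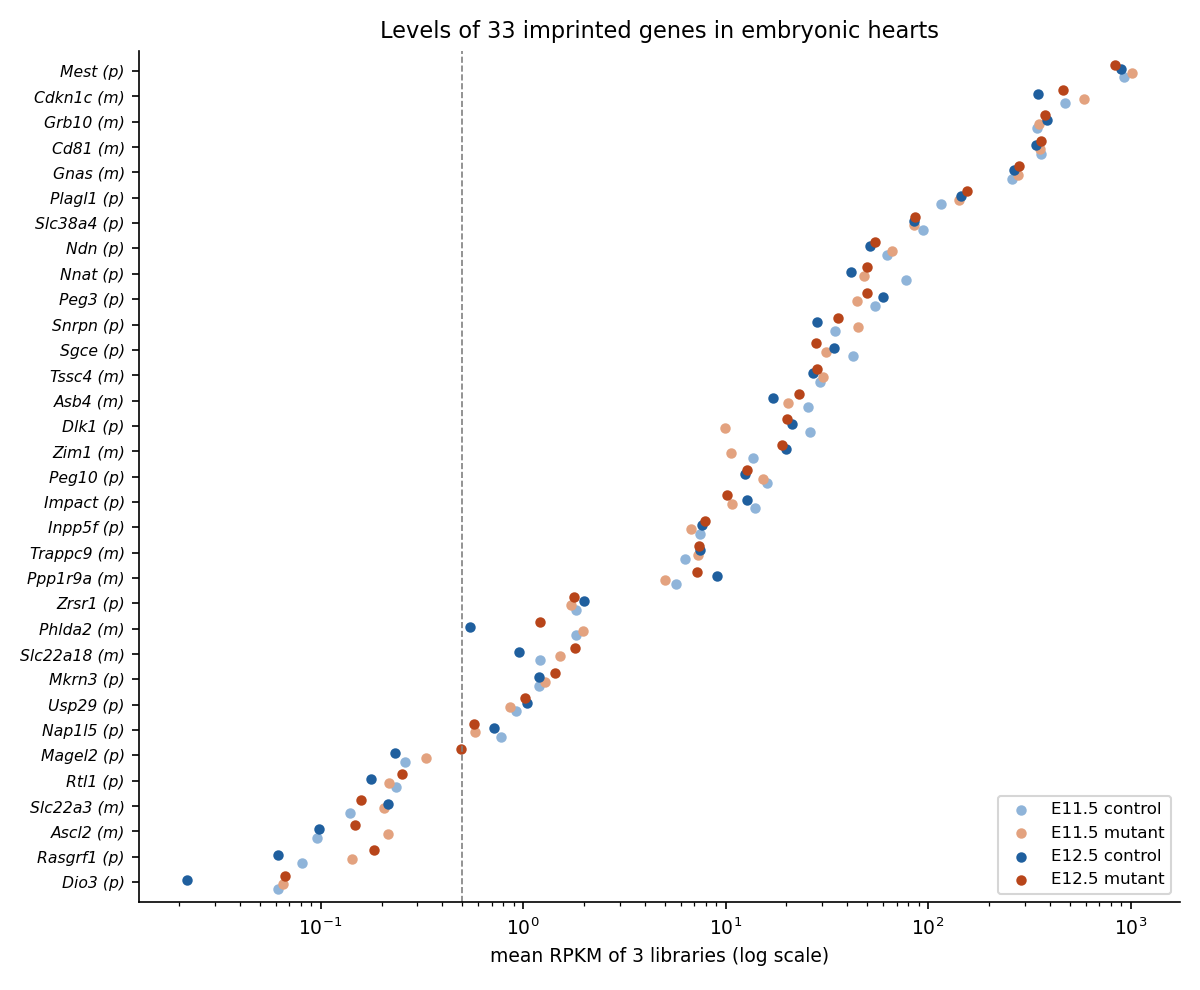
Mean RPKM of the 3 libraries of each group (log axis) for 33 imprinted genes, ordered by their mean over 12 libraries; p and m after the symbol stand for the paternal and maternal copy as textbook background, and the dashed line is the 0.5 RPKM limit for testing. The colours of most rows lie close together, while the order spans Mest at a mean of 921 RPKM to Dio3 at 0.05.

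Library totals ran from 11994148 to 17483982 counts. Embryos were called male from 4 Y-linked genes, which gave 3 males of 3 in the E11.5 controls and 1 male of 3 in each other group. Libraries also differed with gene length. The median deviation of genes over 5000 bases minus that of genes under 1500 bases, on the log2 scale, was lowest in E11.5 mutant 3 (-0.71) and highest in E12.5 control 1 (0.46). Summed marker levels at E11.5 were 1535 to 2104 CPM in mutants and 2388 to 2565 in controls for 8 cushion mesenchyme genes. For 8 epicardial genes they were 520 to 597 against 621 to 920 CPM, and at E12.5 589 to 652 against 419 to 608 CPM, with overlap. The 8 endothelial genes at E11.5 summed to 1183 to 1814 CPM in mutants and 934 to 1276 in controls, also with overlap. At E12.5 the 7 detected of 9 erythroid genes summed to 2072 to 2686 CPM in mutants and 3818 to 6292 in controls. The 7 detected of 8 macrophage genes were lower in mutants at both stages (12.1 to 17.8 against 29.5 to 80.4 CPM, and 39.7 to 57.6 against 80.8 to 108). Cardiomyocyte markers were abundant in every group (21967 to 30343 CPM, all 10 genes detected) and trophoblast markers stood at 0.78 CPM or less in sum. In bulk hearts, fewer cells of a type and less RNA per cell cannot be told apart, and the part of cell makeup in the results that follow was not tested. The reads on Hira cannot check the genotype, since they are summed over the gene and 1 exon is removed.

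The first question was whether imprinted genes changed when HIRA was absent. At E11.5 none of the 27 tested genes passed the threshold of edgeR's quasi-likelihood test, an adjusted p of at most 0.05 with a fold of at least 1.5, which 0.115% of all tested genes passed. Before adjustment 5 of the 27 (18.5%) had a p under 0.05, against 10.3% of all genes. DESeq2 called 2 of the 27 and 2.03% of all genes, and limma called 0 of the 27 and 0.221% of all genes. The 5 genes were Dlk1, Nnat, Sgce, Impact and Asb4, and each was lower in all 3 mutants than in all 3 controls. With Snrpn and Plagl1, which were higher, the libraries of 7 of 27 genes (25.9%) did not overlap, against 16.3% of all genes (7.73% higher and 8.62% lower). The median log2 ratio over the 27 genes was -0.06, beside -0.01 over all genes. With E11.5 mutant 3 left out, the count was again 0.

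Dlk1, a paternally expressed transmembrane protein related to Notch ligands, had the lowest value of the 27 at E11.5. It was named after its values were seen, as were Sgce, Impact, Slc22a18, Tssc4, Peg3, Peg10 and Zim1, and below Dnmt3b, Zfp445 and Tet3. Its levels were 165, 83.6 and 93.4 CPM in the E11.5 controls and 60.8, 28.1 and 40.5 CPM in the mutants. All 3 mutants lay under the lowest control, and control 1 stood far above the other two. The log2 ratio was -1.40 (SE 0.32, adjusted p = 0.155, edgeR), and the exact two-sided permutation test gave the smallest p that 3 against 3 libraries allow, 0.1. The adjusted p was 0.00181 with DESeq2, 0.0199 with all 12 libraries in 1 edgeR fit, 0.0486 without a filter on low counts and 0.0993 with the gene length correction described below. It was 0.215 at a minimum of 5 RPKM and 0.124 to 0.481 with 1 library left out, where the log2 ratio ran from -1.73 to -1.03 (the latter without control 1). At E12.5 Dlk1 stood at 82.0, 94.8 and 102 CPM in controls and at 94.5, 90.8 and 75.9 CPM in mutants, and the groups overlapped. Cushion mesenchyme, epicardial and macrophage markers moved in the same direction as Dlk1 at E11.5, while endothelial markers ranged higher in mutants with overlap. The part of cell makeup in the value of Dlk1 was not tested.

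Nnat, neuronatin, a small membrane protein of the endoplasmic reticulum, was also lower in the E11.5 mutants. The controls held 92.4, 91.7 and 99.6 CPM and the mutants 62.1, 42.8 and 70.0 CPM, without overlap. The log2 ratio was -0.70 (SE 0.18, adjusted p = 0.185, edgeR), and over the alternatives the adjusted p ran from 0.0266 with DESeq2 to 0.615 without control 3. With sex as a term it was -0.43 (the 3 controls were male and 2 of the 3 mutants were female). Nnat lies at chr2:157560078-157562522 inside the antisense gene Blcap, and whether reads were counted by strand is not given in the sources used here.

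Sgce, the epsilon-sarcoglycan of the dystrophin complex, and Impact, a regulator of the translation kinase GCN2, were lower in mutants at both stages without overlap of the libraries. Sgce stood at 79.5 ± 8.47 CPM (SD, n = 3) in controls and 58.8 ± 4.42 in mutants at E11.5, a log2 difference of -0.43 (SE 0.13), which missed the threshold (adjusted p = 0.255, edgeR). At E12.5 it was 64.2 ± 3.42 CPM in controls and 52.4 ± 3.64 in mutants, with a log2 ratio of -0.28 (SE 0.08, adjusted p = 0.0859, edgeR). Impact stood at 48.2 ± 4.09 and 36.9 ± 1.5 CPM at E11.5 (log2 ratio -0.39, SE 0.12) and at 43.6 ± 1.89 and 35.0 ± 2.83 CPM at E12.5 (-0.30, SE 0.09). The adjusted p of Impact was 0.285 and 0.0832 in edgeR's test, so neither stage passed. An adjusted p under 0.05 was reached by Sgce with all 12 libraries in 1 fit at E11.5 (0.0463) and with the gene length correction at E12.5 (0.0438), and by Impact in no alternative at either stage.

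At E12.5 none of the 27 genes passed both parts of the threshold, against 3.03% of all tested genes. DESeq2 and limma also called 0 of the 27, against 3.56% and 2.66% of all genes. By the adjusted p alone 3 genes passed (11.1%, against 5.12% of all genes), and all 3 rose, which 2.83% of all genes did. They were Cdkn1c, Asb4 and Snrpn. Before adjustment 9 genes (33.3%) had a p under 0.05, against 21.3% of all genes. The libraries of 10 genes (37.0%) did not overlap, 6 higher and 4 lower in mutants, against 26.4% of all genes (12.1% higher and 14.2% lower). The median log2 ratio was 0.04 over the 27 genes and 0.00 over all genes.

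Cdkn1c at chr7:143458350-143461050 rose in the E12.5 mutants. The controls held 640.0, 656 and 734 CPM and the mutants 930.2, 889.5 and 882 CPM. The lowest mutant lay well above the highest control. The log2 ratio was 0.43 (SE 0.08, 1.34-fold, adjusted p = 0.0112, edgeR). The gene still passed with the replicate block, with sex as a term and with the gene length correction (0.39, adjusted p = 0.00971). It was above 0.05 with all 12 libraries in 1 fit (adjusted p = 0.109), without control 2 (0.0534) and without mutant 1 (0.0563). At E11.5 the controls held 951, 978 and 829.6 CPM and the mutants 967, 1181 and 1267 CPM, so the groups overlapped.

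Asb4, the substrate receptor of a ubiquitin ligase, is expressed from the maternal copy and lies at chr6:5383386-5433022. At E12.5 it stood at 61.8, 55.4 and 52.1 CPM in controls and rose to 79.0, 79.0 and 70.5 CPM in mutants. The log2 ratio was 0.45 (SE 0.09, 1.36-fold, adjusted p = 0.0174, edgeR). It missed the threshold with all 12 libraries in 1 fit (adjusted p = 0.0629), and without control 2 (0.0658), mutant 1 (0.0665) or mutant 2 (0.0580). At E11.5 the order was the opposite, with 76.1, 91.1 and 83.7 CPM in controls and 71.0, 65.9 and 62.8 CPM in mutants. That difference of -0.33 on the log2 scale (SE 0.12, adjusted p = 0.379, edgeR) did not pass, although the libraries did not overlap at either stage.

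Snrpn, a protein of the spliceosomal ribonucleoproteins, is the paternally expressed gene that names its cluster. Its levels at E12.5 were 64.8, 66.4 and 70.9 CPM in controls and 86.1, 87.7 and 84.1 CPM in mutants. The mutants lay close together and above every control. The log2 ratio was 0.37 (SE 0.07, 1.29-fold, adjusted p = 0.0181, edgeR). It missed the threshold with all 12 libraries in 1 fit (0.263), and without control 1 (0.0636), control 2 (0.0748), mutant 1 (0.0648) or mutant 2 (0.0573). At E11.5 the mutants, with 92.5, 99.1 and 131 CPM, also lay above the controls, with 91.7, 86.7 and 70.2 CPM, by a narrow margin. The identifier of this row is named Gm38393 in GENCODE vM21, where its span overlaps Snrpn, Snurf and Snhg14 on the same strand, so the reads may not all belong to Snrpn.

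**Figure D2:**
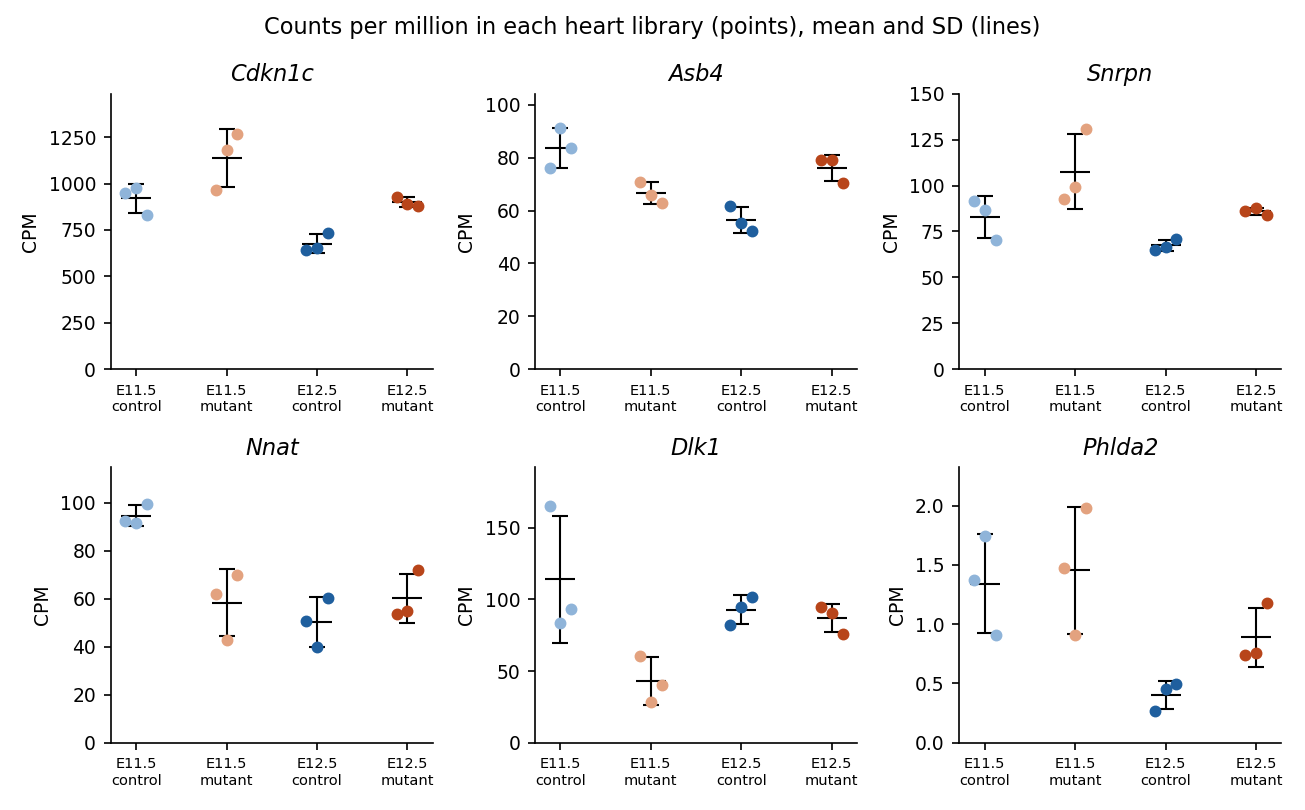
CPM on scaled library sizes in each library (points) with mean and SD (black lines) for 6 imprinted genes in the 4 groups of 3 libraries. Cdkn1c, Asb4 and Snrpn lie higher in mutants than in controls at E12.5 without overlap, Asb4 lies lower at E11.5, and the E11.5 controls of Nnat lie above all other libraries.

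Read by cluster, the Kcnq1 domain on chromosome 7 had 5 tested genes among the 35 listed, all given as expressed from the maternal copy. All 5 had positive values at E12.5 with a median of 0.43. Beside Cdkn1c, Slc22a18, an organic cation transporter-like protein, had 1.65, 1.13 and 1.91 CPM in controls and 3.14, 3.33 and 2.36 CPM in mutants, a log2 ratio of 0.93 (SE 0.29, adjusted p = 0.0886, edgeR). Phlda2, a small pleckstrin homology protein that restrains placental growth, had 0.26, 0.45 and 0.49 CPM in controls and 0.74, 0.76 and 1.18 CPM in mutants, which rests on 4 to 18 reads per library (1.13, SE 0.44, adjusted p = 0.168, edgeR). Both groups of libraries were apart for each gene, but neither passed the threshold. Cd81 and Tssc4 stood at 0.10 and 0.09. The 5 genes are short, between 737 and 1942 bases, and short genes as a whole were higher in the E12.5 mutants. With the gene length correction the median of the 5 was 0.39, and Cd81 and Tssc4 came to 0.04 and 0.01. At E11.5 the same 5 genes had a median of 0.09, and the libraries of none were apart. Other genes of this region were in the list of other imprinted genes below, and those named next were picked after their values were seen. In E12.5 controls and mutants, Kcnq1 itself had means of 17.5 and 13.9 CPM and Osbpl5 80.5 and 67.3 CPM. The means of Nap1l4 (329.5 and 335.5 CPM), Cars (43.5 and 46.4) and Tspan32 (3.52 and 4.76) were higher in mutants. Positive values were thus not shared by every gene of the region.

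The Peg10 domain on chromosome 6 had negative values for all 4 tested genes at E11.5. Their median was -0.26, and -0.27 with the gene length correction. With 1 library left out, Peg10 reached 0.23 and Ppp1r9a 0.001, while Sgce and Asb4 stayed negative. At the later stage the 4 genes did not move as a block. At E12.5 Asb4 had a positive value while Sgce and Ppp1r9a had negative ones, and Peg10, a retrotransposon-derived gene, stood at 0.03. Ppp1r9a, neurabin, an actin-binding scaffold, had 97.6, 84.9 and 78.4 CPM in the E12.5 controls and 70.9, 69.6 and 65.8 CPM in the mutants, a log2 ratio of -0.32 (SE 0.09, adjusted p = 0.0626, edgeR), which became -0.20 with the gene length correction. Its adjusted p was 0.0293 with DESeq2, 0.0394 without control 3, 0.0453 without a filter on low counts and 0.0489 with the replicate block, and up to 0.424 with all 12 libraries in 1 fit. The 3 tested genes of the Snrpn domain had positive values at both stages, with a median of 0.10 at the earlier and 0.29 at the later stage. At the earlier stage all but Snrpn itself turned negative in a fit with 1 library left out, the lowest being -0.11 for Ndn. In the Peg3 domain the 3 tested genes had negative values at both stages, but these signs were not stable. With the gene length correction 1 of the 3 was positive at E12.5. At E11.5 each of the 3 turned positive in a fit with 1 library left out, the highest being 0.12 for Peg3. At E12.5 all but Peg3 did so. Peg3 itself, a zinc finger protein of the paternal copy, stood at 396 ± 49.1 CPM in controls and 332 ± 15.3 in mutants at E12.5, a log2 difference of -0.24 (SE 0.09, adjusted p = 0.164, edgeR), which became -0.16 with the gene length correction and -0.14 without control 1. At E11.5 its libraries ranged from 103 CPM in mutant 3 to 501 CPM in control 2, and those of its neighbour Zim1 were likewise lowest in mutant 3, at 12.2 CPM.

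The expressed copy of textbook background was not measured in these hearts. Split by it, 7 of 11 maternal and 8 of 16 paternal genes had positive values at E12.5, with medians of 0.10 and 0.01. With the gene length correction these counts were 9 and 9, with medians of 0.06 and 0.05. At E11.5, 7 of 11 maternal and 5 of 16 paternal genes had positive values, with medians of 0.06 and -0.11. The most abundant genes had small values. At E12.5 Mest stood at 2750.0, 2389 and 2302 CPM in controls and 2218, 2099 and 2698 CPM in mutants. Grb10 had 2229, 1939 and 1839 CPM in controls and 1923, 1883 and 2068 CPM in mutants. Gnas had 1472, 1667 and 1636 CPM against 1842, 1701 and 1546 CPM. The groups overlapped for these 3 genes, with log2 ratios between -0.07 and 0.11 and adjusted p of 0.733, 0.922 and 0.509 in edgeR's test.

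Plagl1 at E12.5 stood at 835, 731 and 732 CPM in controls and at 826, 829 and 795 CPM in mutants. Cd81 had 534, 530.1 and 482 CPM in controls and 548, 525 and 569 CPM in mutants. Slc38a4 had 358, 320.4 and 322 CPM against 304, 330.4 and 385 CPM. Ndn had 80.5, 92.2 and 83.9 CPM against 91.8, 89.8 and 89.6 CPM. Controls and mutants overlapped for each of these 4 genes as well. At E11.5 Mest ran from 2527 to 2597 CPM in controls and from 2501 to 3516 CPM in mutants, and of the 8 most abundant genes Plagl1 was the only gene whose libraries were apart, with 549 to 644 CPM in controls and 648 to 901 CPM in mutants.

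**Figure D3:**
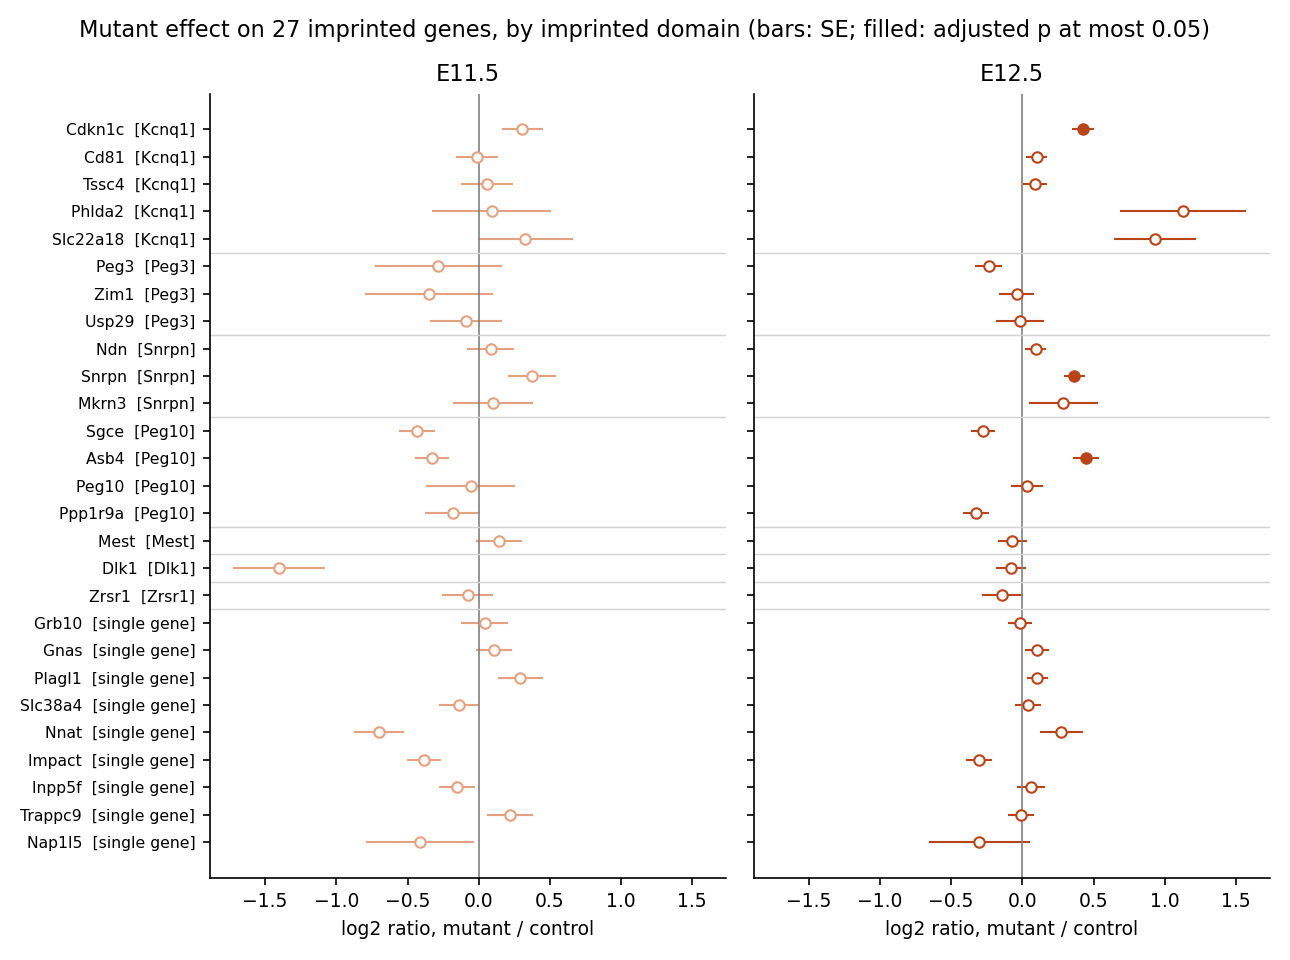
Log2 ratio of mutants against controls with its SE for 27 imprinted genes at E11.5 and E12.5, grouped by imprinted domain; filled points have an adjusted p of at most 0.05 in edgeR's test. Filled points are Cdkn1c (0.43), Asb4 (0.45) and Snrpn (0.37) at E12.5, and the lowest point is Dlk1 at E11.5 (-1.40).

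Whether the mutant effect differed between the stages was tested as an interaction over all 12 libraries. No gene of the whole table passed an adjusted p of 0.05 in edgeR's test (0% of 12270 genes), while 552 genes (4.5%) and 3 of the 27 imprinted genes had an unadjusted p under 0.05. The 3 were Asb4, Nnat and Dlk1. The later effect less the earlier was 0.76 on the log2 scale for Asb4 (SE 0.14, adjusted p = 0.217), 0.96 for Nnat (SE 0.26, adjusted p = 0.525) and 1.31 for Dlk1 (SE 0.38, adjusted p = 0.618), all by edgeR. DESeq2 called Asb4 alone among the imprinted genes (adjusted p = 0.00129), with 41 genes called in the whole table (0.334%), and limma called 0 (0% of all genes).

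The second question was how the genes changed from E11.5 to E12.5 in each genotype. These comparisons use the same libraries as those between the genotypes, so a value of a control group enters both. In control hearts 3 of the 27 genes passed the threshold (11.1%, against 5.31% of all tested genes), Nnat and Phlda2 as lower and Ppp1r9a as higher at E12.5. Before adjustment 10 (37.0%) had a p under 0.05, against 32.7% of all genes. By the adjusted p alone Asb4 and Cdkn1c passed too, which made 5 (18.5%, against 11.3% of all genes). The libraries of 8 genes (29.6%) were apart, against 37.4% of all genes. Sex and stage were confounded in part, with 3 males among the E11.5 controls and 1 among the 3 E12.5 controls. With sex as a term none of the 27 genes passed, and the calls over all genes went from 650 to 19.

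Nnat fell from 94.6 ± 4.39 CPM (SD, n = 3) in E11.5 controls to 50.8, 39.8 and 60.5 CPM in E12.5 controls. The log2 ratio was -0.91 (SE 0.14, adjusted p = 0.0106, edgeR). It was -0.64 with sex as a term (adjusted p = 0.295), -0.68 with the gene length correction (0.0238) and -0.91 without E12.5 control 1 (0.0593). The E11.5 controls stood apart from the other 9 libraries, whose highest was 72.1 CPM in E12.5 mutant 3.

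Ppp1r9a had 52.9, 62.9 and 47.4 CPM in the E11.5 controls and rose to 97.6, 84.9 and 78.4 CPM in the E12.5 controls, with a log2 ratio of 0.68 (SE 0.12, adjusted p = 0.0186, edgeR). Its 9547 bases made it the longest gene of the 27, and the gene length correction brought the value to 0.36 (adjusted p = 0.0387), under the 1.5-fold limit. It missed the threshold with sex as a term (0.423) and without E11.5 control 1 (0.0534), E11.5 control 3 (0.0525), E12.5 control 1 (0.0965) or E12.5 control 2 (0.0713). Phlda2, the shortest with 737 bases, had 1.37, 1.74 and 0.91 CPM and fell to 0.26, 0.45 and 0.49 CPM. Its log2 ratio was -1.71 (SE 0.45, adjusted p = 0.0390, edgeR). It was -1.38 with the gene length correction (adjusted p = 0.114), and leaving out any 1 of the 6 libraries ended the call, with adjusted p from 0.0582 to 0.154.

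Asb4 fell by 0.57 on the log2 scale in controls (SE 0.11, adjusted p = 0.0189, edgeR) and Cdkn1c by 0.44 (SE 0.10, adjusted p = 0.0317, edgeR). The adjusted p of Asb4 was above 0.05 without E12.5 control 1 (0.0593) or E12.5 control 2 (0.0955) and with sex as a term (0.224). Its log2 ratio stayed between -0.68 and -0.50 in all alternatives. The adjusted p of Cdkn1c was above 0.05 without E11.5 control 1 (0.0819), E12.5 control 1 (0.147) or E12.5 control 2 (0.122), with sex as a term (0.537) and with the gene length correction (0.0518). For both genes the E12.5 control libraries were the lowest of the 4 groups. The other 22 genes did not pass, among them Plagl1 with 0.33 (SE 0.10, adjusted p = 0.0605, edgeR), which became 0.17 with the gene length correction.

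Across all genes the change in control hearts ran with gene length. The median log2 ratio was -0.28 for 2100 genes under 1500 bases and 0.23 for 2218 genes over 5000 bases. In mutant hearts the medians were -0.12 and 0.12, and for the mutant effect at E12.5 they were 0.11 and -0.09. A correction that takes each library's deviation along gene length into the fit was therefore added after the data were seen. Under it 303 genes were called in the control comparison in place of 650.

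**Figure D4:**
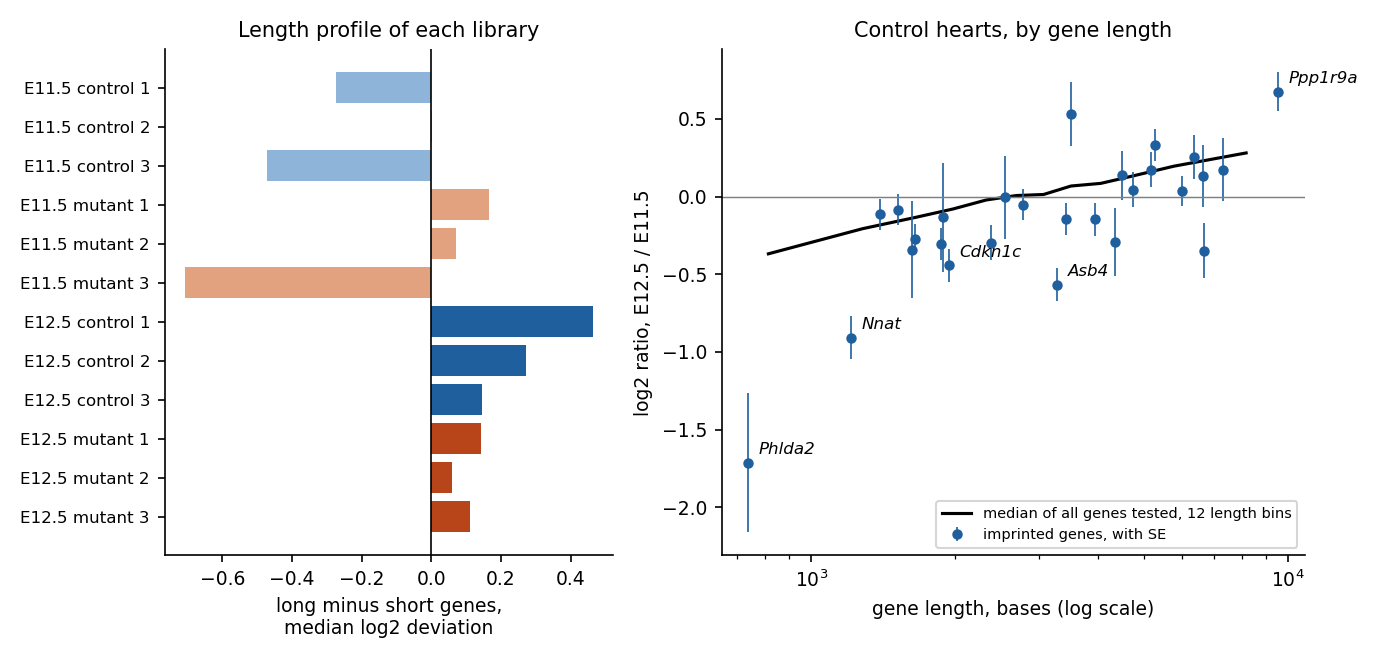
Left, the median log2 deviation of genes over 5000 bases minus that of genes under 1500 bases in each of the 12 libraries; right, log2 ratio of E12.5 against E11.5 controls with SE for 27 imprinted genes against gene length (log axis), with the median of all tested genes in 12 length bins as a line. The line rises with length. Phlda2 (-1.71), the shortest of the 27 genes, lies under it and Ppp1r9a (0.68), the longest, lies above it. Asb4 (-0.57) lies under it at mid length.

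In mutant hearts none of the 27 genes passed from E11.5 to E12.5 in edgeR's test, against 0.523% of all tested genes. Before adjustment 4 (14.8%) had a p under 0.05, against 9.13% of all genes. DESeq2 called 1 of the 27 and 1.85% of all genes, and limma called 0 of the 27 and 0.523% of all genes. Dlk1 was higher in each E12.5 than in each E11.5 mutant library, with 60.8, 28.1 and 40.5 CPM before and 94.5, 90.8 and 75.9 CPM after, but the log2 ratio of 1.02 (SE 0.25) had an adjusted p of 0.192 by edgeR. It passed with DESeq2 (0.00670) and without E11.5 mutant 1 (1.35, adjusted p = 0.0386). The adjusted p reached 0.608 without E12.5 mutant 1, and the log2 ratio was 0.77 without E11.5 mutant 2. Ppp1r9a stood at 0.52 (adjusted p = 0.386), Cdkn1c at -0.33 (0.434) and Snrpn at -0.31 (0.533) by edgeR. The libraries of 6 genes (22.2%) were apart, against 17.4% of all genes.

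Other genes reported as imprinted gave a list of 65, of which 44 to 46 were tested in each comparison. H19 and Meg3 were not analysed here. Igf2, the paternally expressed growth factor, stood at a mean of 804 RPKM, and its maternally expressed decoy receptor Igf2r at 264 RPKM. Igf2 had 3133, 3353 and 3224 CPM in the E12.5 controls and 3772, 3165 and 3413 CPM in the mutants, which overlapped. Igf2r had 3429, 2454 and 2081 CPM in the controls and 2265, 2014 and 3636 CPM in the mutants, a wide spread in both groups. At E11.5 none of the 44 tested genes passed in edgeR's test, and 10 (22.7%) were under 0.05 before adjustment, against 10.3% of all genes.

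Of 45 genes tested at E12.5, 2 passed (4.44%, against 3.03% of all genes). Bcl2l1, an inhibitor of cell death, fell from 42.5, 40.2 and 48.9 CPM in controls to 28.0, 20.3 and 28.5 CPM in mutants (log2 ratio -0.77, SE 0.13, adjusted p = 0.0104, edgeR). Dlx5, a homeobox factor, rose by 1.95 on the log2 scale (SE 0.46, adjusted p = 0.0356, edgeR) from 0.13, 0.39 and 0.37 CPM to 1.20, 0.93 and 1.44 CPM. Both missed the threshold with all 12 libraries in 1 fit (0.105 and 0.0912). Dlx5 also missed it without control 1 (0.109), control 2 (0.0727), control 3 (0.0559) or mutant 2 (0.0573). Its control mean of 0.30 CPM at 1406 bases lay under the 0.5 RPKM limit, so it was tested only through the mutants. Its mean over 12 libraries was 0.54 RPKM, and it was 1 of the 2 calls. In control hearts from E11.5 to E12.5, 3 genes of this list rose (Smoc1, Ddc and Fbxo40) and 3 fell (Tspan32, Mcts2 and Th) of 44 tested (13.6%, against 5.31% of all genes). Th had 0.72 CPM at 1757 bases in E12.5 controls, under the 0.5 RPKM limit, so it was tested only through the E11.5 controls (1.98 CPM). Smoc1, a matricellular protein, had the largest rise, from 9.61, 7.04 and 8.42 CPM to 24.7, 24.9 and 25.0 CPM (1.57, SE 0.14, adjusted p = 0.00115, edgeR). It passed under each alternative that was run. The other 5 missed the threshold without E12.5 control 1 (0.0593 to 0.160) or E12.5 control 2 (0.0530 to 0.128). All of them but Tspan32 missed it without E11.5 control 1 (0.0653 to 0.0923) or E11.5 control 3 (0.0720 to 0.0948), and all but Ddc with sex as a term. With the gene length correction Fbxo40 (0.0567), Mcts2 (0.222) and Th (0.0662) missed it, and so did Fbxo40 with all 12 libraries in 1 fit.

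Factors that keep or erase imprints gave a list of 28, of which 25 were tested. None passed at E11.5 or E12.5 in edgeR's test, with 1 (4%) and 3 (12%) at an unadjusted p under 0.05, against 10.3% and 21.3% of all genes. At E12.5, 20 of the 25 had negative values, with a median of -0.07, beside -0.002 over all genes. Genes over 5000 bases as a whole had a median of -0.09, and the part of gene length in the values of this list was not tested. The libraries of 7 (28%) were apart, 6 (24%) as lower in mutants and 1 (4%) as higher. Over all genes 26.4% were apart, 14.2% as lower and 12.1% as higher. Dnmt3b, a de novo DNA methyltransferase, was higher in mutants without overlap at both stages. It had 16.6, 18.7 and 13.8 CPM in controls and 24.6, 31.4 and 22.04 CPM in mutants at E11.5, and 15.7, 19.4 and 16.7 CPM against 24.2, 20.5 and 23.4 CPM at E12.5. Its log2 ratios of 0.67 (SE 0.18, adjusted p = 0.216, edgeR) and 0.41 (SE 0.12, adjusted p = 0.0690, edgeR) did not pass. The first came to 0.43 with sex as a term, and its adjusted p was 0.0449 with all 12 libraries in 1 fit. The other two genes with a p under 0.05 at E12.5 were Zfp445, an imprint-protecting zinc finger gene (-0.31, adjusted p = 0.105, edgeR, and 0.0464 with DESeq2), and the dioxygenase Tet3 (-0.25, adjusted p = 0.172, edgeR), which came to -0.12 with the gene length correction and -0.15 without control 1. ZFP57 binds the methylated hexamer, TRIM28 is its corepressor and DNMT1 copies methylation at replication. Zfp57 stood at 46.2, 48.3 and 46.1 CPM in the E12.5 controls and 50.4, 47.0 and 47.2 CPM in the mutants. Trim28 had 492, 580.2 and 545 CPM against 536, 529.9 and 527 CPM, and Dnmt1 had 351, 347 and 316 CPM against 324, 321 and 346 CPM. The groups of these 3 genes overlapped. In control hearts 2 of the 25 passed from E11.5 to E12.5, both as higher (8%, against 5.31% of all genes). By the adjusted p alone 3 did (12%, against 11.3% of all genes). The 2 genes were Tet2, a dioxygenase that oxidises 5-methylcytosine, and Arid4a. They rose by 0.72 (SE 0.13, adjusted p = 0.0171, edgeR) and 0.66 (SE 0.13, adjusted p = 0.0205, edgeR). Both missed the threshold with sex as a term (0.399 and 0.407) and without E11.5 control 1 (0.0536 and 0.0585), E11.5 control 3 (0.0553 and 0.0563), E12.5 control 1 (0.0815 and 0.105) or E12.5 control 2 (0.0597 and 0.0713). Arid4a also missed it with all 12 libraries in 1 fit (0.0617). With the gene length correction the values were 0.42 and 0.47, both under the 1.5-fold limit on the log2 scale.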

How the data were processed

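RNA-seq of 12 libraries from embryonic hearts was used. Per the labels and the study's methods, paired-end reads were aligned to mm10 with Bowtie2 and normalised with DESeq. The counting program, annotation and strand use are not given in the sources used here. The authors deposited values named RPKM, each of which was a whole count multiplied by a gene length and a library factor, and expected counts, namely the mean count of each group. The authors' fold changes and p-values were not used. Counts were recovered from both files: 100% of counts for 17827 genes were within 1e-06 of a whole number and added up to the deposited means. Jointly counted genes numbered 64.

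Counts were tested with edgeR 4.0.16 (R 4.3.3): TMM scaling, genes above a mean of 0.5 RPKM, the quasi-likelihood test, and Benjamini-Hochberg adjustment over all genes tested. A call needed an adjusted p no higher than 0.05 and at least a 1.5-fold change, the latter not used for the interaction. SE came from the F statistic. CPM used TMM-scaled totals, which ran from 11994148 to 17483982 before scaling, and the spread between libraries, not counting error, set the precision. Since no source says that libraries came from separate litters, p-values measure only the spread between these samples. Alternatives were DESeq2 1.42.0, limma 3.58.1 on log2(RPKM + 0.5), median-ratio scaling, no filter, a minimum of 5 RPKM, no fold threshold, all 12 libraries in 1 fit, the replicate number as a block, sex as a term, each library left out, and a gene length correction chosen after the data were seen. The fits were tested on simulated data.

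The members and lists were chosen with earlier results of these data known. Values per library are given for genes called or at an adjusted p of at most 0.05 in any fit and for the 8 with the highest mean RPKM. Of the other lists, called genes and a few named ones are given. Genes outside this rule are marked as named after their values were seen. Gene coordinates are those of the deposited files, on mm10.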

Additional observations from a re-analysis of the deposited data

Results flagged for a closer look

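The mutant effect on Asb4 had opposite directions at the 2 stages. All 3 mutants lay under all 3 controls at E11.5, and all 3 lay above them at E12.5. The later effect less the earlier was 0.76 on the log2 scale (SE 0.14). The interaction did not pass in edgeR's test (adjusted p = 0.217), its adjusted p over the alternatives ran from 0.00129 to 0.740, and DESeq2 alone brought it under 0.05. Groups of 3 libraries were too small for a test of single samples far from their group.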

How the results depend on the processing

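The number of the 27 imprinted genes called at E11.5 was 0, and became 1 without a filter on low counts, 1 with all 12 libraries in 1 fit, 1 with the replicate block (Dlk1 in each case) and 2 with DESeq2 (Dlk1 and Nnat). At E12.5 it was 0, and 3 without the fold threshold. In control hearts across stages it was 3, and became 5 without the fold threshold, 0 with sex as a term, and 0 to 3 with 1 library left out. The lowest was without E12.5 control 1, and 1 gene was called without E11.5 control 3 or without E12.5 control 2. In mutant hearts across stages it was 0, and became 1 with DESeq2, and 0 to 1 with 1 library left out (1 without E11.5 mutant 1). For the interaction it was 0, and 1 with DESeq2. The cause of these changes was not tested, except that without the fold threshold fewer conditions had to be met. Over the whole table, calls at E11.5 went from 14 to 248 with DESeq2, 229 with all 12 libraries in 1 fit, 96 with the replicate block, 73 without a filter, 65 with the gene length correction and 39 with sex as a term, and at E12.5 from 371 to 127 with all 12 libraries in 1 fit. Same-numbered libraries did not deviate together throughout (Pearson r across genes from -0.19 to 0.53), so the main fits took the numbers as names. Between E11.5 mutants and controls r was -0.12, 0.53 and 0.38 for numbers 1, 2 and 3. At E12.5 it ran from -0.10 to 0.01. Whether the E11.5 libraries of the same number share a litter or a batch was not tested. Of the 135 values of the 27 genes in 5 comparisons, 52 turned sign in at least 1 alternative, none of them with an unadjusted p under 0.05. Among printed log2 ratios at E12.5, that of Grb10 became 0.0405 with the gene length correction and ran from -0.0749 to 0.0648 with 1 library left out, that of Mest from -0.192 to 0.00841 and that of Peg10 from -0.0890 to 0.152. Of 767 values of 51 printed results under the alternatives, 5 turned sign, all of these 3 genes, 663 stayed on the same side of an adjusted p of 0.05, 78 lost it and 21 gained it. Genes such as Phlda2, with 4 to 27 reads per library, are limited by depth.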
